A study of Mus musculus with 18 samples.

Results

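Cultured and uncultured myeloid progenitors (MP), the partly committed bone marrow descendants of blood stem cells, were compared without any induction of reprogramming. The comparison used 3 of the 18 libraries of the series. These are uncultured MP (MP_0), MP after 2 days in culture (MP_2N) and MP after 4 days in culture (MP_4N). All 3 come from C57BL/6 mice derived wholly from iPS cells, which carry Oct4, Sox2, Klf4 and c-Myc transgenes that doxycycline can switch on. Uncultured cells and culture controls alike carry these transgenes. Each blood library was made from a pool of 25 hand-picked cells, by polyT priming and PCR. The study followed reprogramming of long-term stem cells (LT-HSC), short-term stem cells (ST-HSC), MP and fibroblasts, and its N libraries are the cells kept in culture without doxycycline. In the labels all 6 N libraries are marked as treated in the doxycycline field, which contradicts both their titles and the series design, and the titles were followed. Neither the surface markers used to isolate MP nor the culture medium is given in the sources used here. Each condition was 1 library, so there were no replicates.

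Common myeloid progenitors give rise to granulocytes, monocytes, mast cells, erythroid cells and megakaryocytes. Which of these routes a culture favours depends on the cytokines in it: erythropoietin and thrombopoietin keep erythroid and megakaryocytic cells alive, and interleukin-3, GM-CSF and their relatives, acting through a common beta receptor chain, JAK kinases and STAT5, support granulocytes, macrophages and mast cells. Immediate early genes, such as those of the Fos and Jun families, are switched on within minutes of a stimulus and code for short-lived transcription factors and feedback regulators.

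The uncultured library carried the markers of myeloid progenitors. Kit, the stem cell factor receptor, stood at 18.7 FPKM, Cd34 at 85.7 and the Fc receptor gene Fcgr3 at 161. The neutrophil granule proteases were among its most abundant genes, with Mpo at 13220 FPKM and Elane at 19240. The fate regulators Cebpa and Sfpi1 (the gene of PU.1) stood at 12.5 and 419 FPKM. Of 25 genes on a stem cell list, 14 passed the filter described below. In uncultured MP Ly6a stood at 0.889 FPKM and Slamf1, Mecom, Hlf and Procr were listed at 0, while Cd48 (76.7 FPKM), Gpr56 (49.9), Prom1 (26.1) and Esam (11.1) were present, as were Kit and Cd34, which are also on that list. The uncultured library also carried the erythroid regulators Klf1 (141 FPKM) and Epor (46.2 FPKM), and the platelet gene Pf4 (91.1 FPKM). Lymphoid Cd3e and the endothelial gene Cdh5 were listed at 0 in all 3 MP libraries.

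Of the 4 genes that the transgenes carry, Pou5f1 (Oct4) was listed at 0 in all 3 MP libraries. Sox2 stood at 1.91 FPKM uncultured, 1.36 at 2 days and 0 at 4 days, against 15.6 and 48.0 in the MP libraries induced for 2 and 4 days. Klf4 stood at 10.7, 3.76 and 22.6 FPKM and Myc at 125, 319 and 102, and transcripts of a transgene were not separated from those of the cell's own gene. The pluripotency gene Nanog, which is not a transgene, was listed at 0 in all 3. The 15 blood libraries had total FPKM of 677649 to 767867, and each held 9726 to 10613 genes at FPKM 1 or more. Read depth is unknown. A listed 0 can be a failed estimate: Hmgcs1, which all dividing cells use, was listed at 0 in all 3 MP libraries, and Gapdh stood at only 7.34, 5.32 and 5.47 FPKM.

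A gene was counted as higher or lower in culture when log2(FPKM + 1) differed from the uncultured library by at least 1, in the same direction, at both days. Of 10418 genes with a mean of at least 1 FPKM over the 3 libraries, 1094 (10.5%) were higher and 913 (8.76%) were lower at both days. Both days were compared with the same uncultured library, so they do not count as independent support for each other. At the edge of the rule, Gemin7 (85.7, 254 and 172 FPKM uncultured, at 2 and at 4 days) was just inside and AC160930.1 (34.5, 69.9 and 85.1 FPKM) just outside. On the lower side H3f3b (455, 227 and 156 FPKM) was just inside and Ier5 (21.1, 10.04 and 9.988 FPKM) just outside. The cultures also differed from each other: 22.5% of the genes differed by at least 1 on the log2 scale between 2 and 4 days.

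A test was run with limma over the 9 uncultured and N libraries of MP, LT-HSC and ST-HSC, taking its error from the difference between the 2-day and 4-day libraries within each cell type. That leaves 3 residual degrees of freedom and assumes that each single uncultured library varies like the cultures. Of 11148 genes tested, 8 (0.0718%) rose and 13 (0.117%) fell in MP culture at an adjusted p under 0.05, and 1273 had an unadjusted p under 0.05. All 21 were also counted by the fold rule. The calls did not hold with any 1 of the 6 N libraries left out. Such a fit has fewer residual degrees of freedom and leaves 1 library in a group. The loss therefore cannot show which library a call rests on, and the per-library values are given beside the calls. With day as a term in the fit, an alternative added after seeing the data that leaves 2 residual degrees of freedom, no gene passed either (1360 had an unadjusted p under 0.05), and the 21 genes had limma adjusted p of 0.0787 to 0.11. The verbs rose and fell below refer to the fit without that term. Under quantile normalization 8 genes rose and 22 fell, and under median-ratio scaling 8 rose and 24 fell.

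The genes that rose were S100a4, S100a6, Cd74, Bcl2l1, Id1, Itgb1bp1, Gnptg and the long non-coding RNA 2700038G22Rik. S100a4, a calcium-binding protein of motile cells, stood at 3.28 FPKM uncultured, 315 at 2 days and 1208 at 4 days, a fitted log2 rise of 7.18 ± 0.743 (SE; limma adjusted p = 0.0292). Its relative S100a6 was listed at 0 uncultured and stood at 61.7 and 281 FPKM in culture (limma adjusted p = 0.034). Bcl2l1, whose product Bcl-xL protects cells from apoptosis, was listed at 0 uncultured and stood at 30.8 and 30.1 FPKM in culture (limma adjusted p = 0.0292). Both cultures gave almost the same value. Id1, an inhibitor of helix-loop-helix transcription factors, went from 37.1 to 506 and 493 FPKM, a rise of 3.72 ± 0.415 on the log2 scale (SE; limma adjusted p = 0.0322). Itgb1bp1, which binds the tail of beta-1 integrin, stood at 0.186, 60.4 and 137 FPKM (limma adjusted p = 0.0418). Gnptg, a subunit of the enzyme that tags lysosomal proteins for transport, stood at 0.413, 35.6 and 35.2 FPKM (limma adjusted p = 0.0374).

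The 15 genes with the largest rise at both days, ranked by the smaller of the 2 differences, also held genes that did not pass the limma test. Lgals3 (galectin-3), a lectin abundant in macrophages, stood at 8.81 FPKM uncultured, 524 at 2 days and 2510 at 4 days (limma adjusted p = 0.126). Cyp11a1, the enzyme that begins steroid synthesis, was listed at 0 uncultured and stood at 122 and 59.2 FPKM in culture. The secreted matrix protein gene Nov was listed at 0 uncultured and stood at 45.5 and 261 FPKM. The chemokine gene Ccl6 stood at 0.485, 189 and 37.9 FPKM. Igfbp7, Nmb, Ifitm6 and RP24-86H20.1 completed the 15, each at under 1 FPKM uncultured and at 22.2 to 95.4 FPKM in the cultures.

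**Figure D1:**
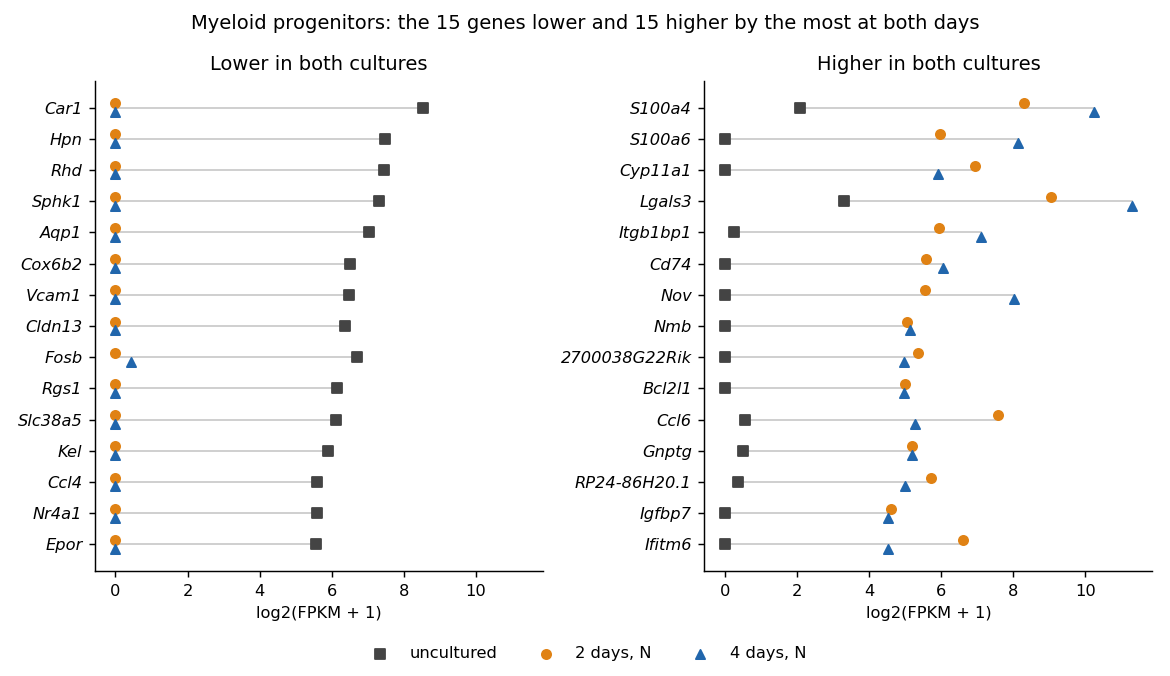
The 15 genes lower (left) and 15 genes higher (right) by the most at both days, with log2(FPKM + 1) on the horizontal axis and 1 point per MP library (square uncultured, circle 2 days, triangle 4 days). Among the lower genes 14 are listed at 0 in both cultures, Fosb being the exception, and among the higher genes the highest cultured value is Lgals3 at 2510 FPKM at 4 days.

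Erythroid genes were the list with the largest share lower in culture. Of 22 genes chosen for this list, with earlier results of these data known, 15 passed the filter. Of the 15, 11 were lower at both days against 8.76% of all genes, while none was higher. The median difference of the 15 was -4.63 at 2 days and -4.93 at 4 days on the log2 scale, against 0.10 and 0.04 over all genes. The summed level of the list was 2413 FPKM uncultured, 367 at 2 days and 349 at 4 days. Of the 11, 7 were listed at 0 in both cultures, so they passed the filter only through their uncultured value. Over all genes, 175 of the 913 lower genes were listed at 0 in both cultures. The 7 include the 3 that passed the limma test. In bulk pools such as these, fewer cells of a type and less RNA per cell cannot be told apart.

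Among the red cell enzymes and transporters, Car1, a carbonic anhydrase of red cells, stood at 366 FPKM uncultured and was listed at 0 in both cultures (limma adjusted p = 0.0292). Its relative Car2 stood at 1141 FPKM uncultured, 45.1 at 2 days and 7.23 at 4 days. Aqp1, a water channel of red cells, stood at 129.6 FPKM uncultured and was listed at 0 at both days (limma adjusted p = 0.036). Sphk1, a sphingosine kinase, stood at 157 FPKM uncultured and was also listed at 0 at both days (limma adjusted p = 0.0292). All 4 genes were counted as lower by the fold rule, which requires lower values in both cultures.

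The erythroid regulators were lower as well. Klf1, a transcription factor that activates globin genes, stood at 141 FPKM uncultured, 3.30 at 2 days and 0 at 4 days. Gata1, the master regulator of erythroid cells and megakaryocytes, stood at 91.6, 16.8 and 8.06 FPKM, and its cofactor Zfpm1 at 11.9, 0.678 and 0. Gfi1b, a repressor needed in the same lineages, stood at 63.9, 2.44 and 4.92 FPKM. Epor, the erythropoietin receptor, stood at 46.2 FPKM uncultured and was listed at 0 in both cultures. None of these 5 regulators passed the limma test of MP culture, the adjusted p being 0.059 for Epor and 0.0627 for Gfi1b.

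Surface proteins of red cells followed the same order of levels. Ermap and Rhag stood at 38.8 and 29.4 FPKM uncultured and were listed at 0 in both cultures. Outside the list, the blood group genes Rhd and Kel stood at 174 and 58.3 FPKM uncultured and were listed at 0 at both days (limma adjusted p = 0.0292 and 0.0418). The amino acid transporter gene Slc38a5 (68.4 FPKM uncultured) and the claudin gene Cldn13 (82.2 FPKM uncultured) fell to a listed 0 in the same way (limma adjusted p = 0.036 for each). List members that were not lower were Tfrc, the transferrin receptor, at 50.8, 91.9 and 44.1 FPKM, Tal1 at 18.7, 19.8 and 23.7, and Nfe2 at 121, 181 and 259.5, while Icam4 stood at 9.09, 6.52 and 1.86. Of these 4, Tfrc was highest at 2 days and Nfe2 at 4 days. Late red cell genes such as the globin gene Hba-a1 were listed at 0 in all 3 libraries.

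Megakaryocyte and platelet genes were lower in 9 of 14 measured members, against 8.76% of all genes, with none higher. Itga2b, the platelet integrin CD41, stood at 139.5 FPKM uncultured, 28.1 at 2 days and 6.34 at 4 days. Vwf, the clotting factor carrier, stood at 64.7, 0 and 2.55 FPKM. Pf4, a platelet chemokine, stood at 91.1, 0 and 5.51 FPKM. Gp9, F2r, Plek, Treml1 and Serpine2 were also lower at both days. No member passed the limma test, and with a pseudocount of 5 in place of 1 the count was 7. As the fold rule itself requires, both cultures lay below the uncultured library for all 9.

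The promoters of Epor and Pf4 are shown as examples of a receptor and a platelet gene in these lists whose promoters hold the letters AGATAA, the sequence bound by GATA factors. The sequences are from RefSeq (GRCm38.p6), from 250 bases before to 50 bases after a gene's start, 5′ to 3′ on the gene's strand. Capitals mark the match, which in Epor reads TTATCT because it lies on the other strand. Epor lies on the minus strand at chr9:21963527-21963826 and Pf4 on the plus strand at chr5:90772185-90772484.
Epor: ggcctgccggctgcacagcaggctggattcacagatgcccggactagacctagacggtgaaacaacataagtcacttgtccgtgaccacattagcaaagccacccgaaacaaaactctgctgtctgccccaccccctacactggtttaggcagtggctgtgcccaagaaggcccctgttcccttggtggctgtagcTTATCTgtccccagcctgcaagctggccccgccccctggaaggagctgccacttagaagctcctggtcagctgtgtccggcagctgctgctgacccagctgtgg
Pf4: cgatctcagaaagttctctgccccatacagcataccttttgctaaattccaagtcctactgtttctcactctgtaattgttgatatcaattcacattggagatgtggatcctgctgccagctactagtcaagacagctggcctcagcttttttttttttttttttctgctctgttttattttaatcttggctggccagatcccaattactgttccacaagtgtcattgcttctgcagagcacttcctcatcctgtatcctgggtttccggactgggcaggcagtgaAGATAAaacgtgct
This motif was chosen after the values were seen. It was searched on both strands and found for 2 of the 8 erythroid genes lower in culture that have a promoter in the table, for 1 of 7 megakaryocyte genes, and for 12.7% of the 27025 genes in the table. Of the lower genes, 11 erythroid and 9 megakaryocyte genes were looked up. The expression values were made on another build (mm9), so no coordinates are given for them.

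Immediate early genes were lower in 16 of 23 measured members at both days, against 8.76% of all genes, and none was higher. The median difference of the list was -2.85 at 2 days and -2.67 at 4 days on the log2 scale. Its summed level was 2192 FPKM uncultured, 523 at 2 days and 402 at 4 days. Fosb stood at 103 FPKM uncultured, 0 at 2 days and 0.360 at 4 days, a difference of -6.48 ± 0.659 on the log2 scale (SE; limma adjusted p = 0.0292). Jun stood at 109, 1.298 and 1.544 FPKM (limma adjusted p = 0.036). These 2 passed the limma test.

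The other members of the Fos and Jun families that were lower are Fos (323 FPKM uncultured, 3.63 at 2 days, 21.1 at 4 days), Junb (196, 28.4 and 32.4) and Jund (13.04, 0.954 and 0.443). Fosl1 and Fosl2 stood at 1.39 to 4.74 FPKM in the 3 libraries and were not lower at both days. Among other transcription factors, Egr1 stood at 47.7, 0.360 and 1.87 FPKM and Atf3 at 161, 0 and 7.41. The orphan nuclear receptor Nr4a1 stood at 46.9 FPKM uncultured and was listed at 0 in both cultures, as was Nr4a2 (12.2 FPKM uncultured). Klf2 stood at 24.8, 0 and 1.05 FPKM and Klf6 at 37.6, 1.42 and 10.04. Each of these factors was lower at both days.

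The feedback regulators in the list followed. Dusp1, a phosphatase that switches off MAP kinases, stood at 224, 4.77 and 5.03 FPKM, and Dusp2 at 90.8, 21.8 and 3.34. Zfp36 (tristetraprolin), which destabilizes cytokine mRNAs, stood at 149, 7.98 and 22.6 FPKM. Ier2 stood at 339, 49.2 and 88.9 FPKM and the antiproliferative gene Btg2 at 40.2, 5.65 and 14.2. Myc, also on this list, was 125 FPKM uncultured, 319 at 2 days and 102 at 4 days, and Ier3 stood at 118, 61.8 and 72.4. Outside the list, Rgs1, a brake on G protein signalling that is induced in activated leukocytes, stood at 69.3 FPKM uncultured and was listed at 0 in both cultures (limma adjusted p = 0.0292).

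The promoters of Jun and Dusp1 are shown because both hold the letters TGACNTCA, the form of the cyclic AMP response element that ATF and Jun proteins bind, in capitals. Jun lies on the minus strand at chr4:95052173-95052472 and Dusp1 on the minus strand at chr17:26508423-26508722 of GRCm38.p6.
Jun: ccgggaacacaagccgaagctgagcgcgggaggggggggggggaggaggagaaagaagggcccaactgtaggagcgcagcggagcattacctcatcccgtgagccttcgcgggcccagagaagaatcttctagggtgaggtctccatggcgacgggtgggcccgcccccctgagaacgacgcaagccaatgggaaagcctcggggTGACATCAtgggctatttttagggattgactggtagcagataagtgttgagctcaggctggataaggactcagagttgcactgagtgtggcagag
Dusp1: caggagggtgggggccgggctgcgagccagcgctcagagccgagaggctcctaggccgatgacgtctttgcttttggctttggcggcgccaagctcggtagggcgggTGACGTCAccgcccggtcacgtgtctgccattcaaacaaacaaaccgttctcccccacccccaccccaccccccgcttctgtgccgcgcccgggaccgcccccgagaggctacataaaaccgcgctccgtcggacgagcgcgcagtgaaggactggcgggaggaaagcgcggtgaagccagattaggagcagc
This motif was also chosen after the values were seen. On either strand it was found for 4 of the 14 lower immediate early genes with a promoter in the table (16 looked up) and in 8.83% of the 32851 promoters in the table. The AP-1 letters TGANTCA were in none of the 14 promoters, against 7.81% of all promoters. A match describes these letters only.

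Related stress and inflammatory lists also held lower genes, where 8.76% of all genes were lower and 10.5% higher. Of 16 measured NF-kB and inflammatory genes, 4 were lower and none higher. Nfkbia, the inhibitor that NF-kB itself induces, stood at 416, 39.0 and 52.0 FPKM. Tnfaip3 (A20), another feedback inhibitor, stood at 53.1, 2.14 and 2.39 FPKM, and Nfkbiz at 30.1, 0 and 3.36. The chemokine gene Cxcl10 stood at 102, 0 and 5.90 FPKM. The NF-kB subunit genes Nfkb1 (76.5, 105 and 116 FPKM) and Rela (115, 47.3 and 67.6 FPKM) were not lower at both days.

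Among 12 MAPK feedback genes, 4 were lower and 1 higher, against 8.76% and 10.5% of all genes. Dusp6 stood at 22.5, 9.40 and 6.03 FPKM and Spry1 at 3.47 FPKM uncultured and 0 in both cultures. Of 12 heat shock genes, 2 were lower: Hspa1a at 46.9, 1.76 and 0.822 FPKM, and Hspa8 at 25.3, 11.7 and 10.9. Of 24 p53 target genes, 7 were lower and 3 higher, the latter a share near the 10.5% of all genes. The lower ones included Gadd45a (213, 57.2 and 39.1 FPKM), the p53 inhibitor Mdm2 (67.5, 22.1 and 29.9) and the pro-apoptotic Bbc3 (15.9, 2.86 and 2.10). Bax, another pro-apoptotic gene, was higher at 32.4, 87.8 and 107 FPKM. Of 23 ATF4 stress and serine synthesis genes, 4 were higher and 4 lower, against 10.5% and 8.76% of all genes. The lower ones included Ddit3 (CHOP), a stress-induced factor, at 191, 9.59 and 18.0 FPKM and Ppp1r15a at 61.7, 7.30 and 9.39. The higher ones included Chac1 at 0.890, 3.29 and 2.99 FPKM. Atf4, the regulator of Ddit3 and Ppp1r15a, stood at 916, 991 and 765 FPKM. None of these genes passed the limma test.

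**Figure D2:**
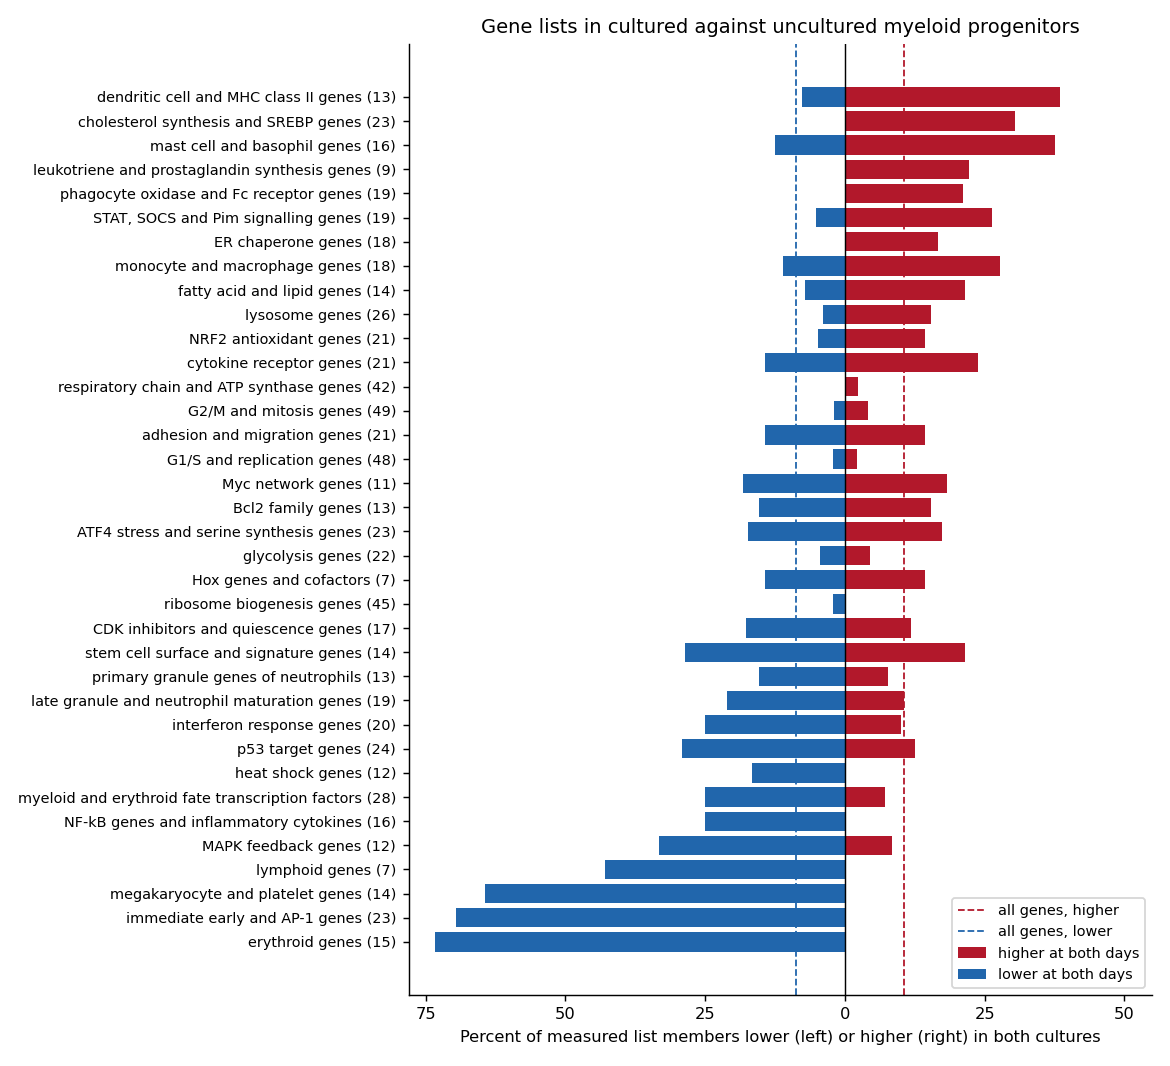
Percent of the measured members of each gene list that were lower (blue, left) or higher (red, right) in both MP cultures, with the number measured in brackets and the shares over all genes as dashed lines at 8.76% and 10.5%. Only lists with at least 7 measured members are drawn. Erythroid, immediate early and megakaryocyte genes extend farthest to the left, and MHC class II, cholesterol and mast cell genes have the longest bars to the right.

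Genes of cytokine signalling held several members that were higher. Of 21 cytokine receptor genes, 5 were higher and 3 lower, against 10.5% and 8.76% of all genes. Csf2rb, the common beta chain of the receptors for interleukin-3, interleukin-5 and GM-CSF, stood at 12.9 FPKM uncultured, 157 at 2 days and 181 at 4 days (limma adjusted p = 0.059). Its close relative Csf2rb2 stood at 6.06, 77.3 and 64.0 FPKM, and reads of this near-identical pair may be shared. Il4ra stood at 8.01, 25.1 and 42.7 FPKM, Tnfrsf1b at 9.05, 26.5 and 30.3, and Il6st at 0.465, 4.15 and 20.4. The lower receptor genes included Epor and Ifngr1 (422, 83.1 and 110.2 FPKM). Csf2ra, the GM-CSF receptor alpha chain, stood at 80.7, 58.6 and 58.0 FPKM, and Il3ra at 29.3, 13.2 and 20.3.

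Of 19 genes of the STAT, SOCS and Pim list, 5 were higher and 1 lower, against 10.5% and 8.76% of all genes. Bcl2l1 and Id1, described above, passed the limma test. The other 3 higher genes code for SOCS-family inhibitors that cytokine receptors induce as feedback. Cish stood at 17.4 FPKM uncultured, 129.7 at 2 days and 279.7 at 4 days. Socs2 was listed at 0 uncultured and stood at 19.1 and 26.3 FPKM in culture (limma adjusted p = 0.054), and Socs1 was listed at 0 and stood at 15.3 and 11.0. By the fold rule itself, every cultured value of these 3 genes lay above the uncultured one. Jak3 was lower at 21.2, 5.52 and 9.60 FPKM. Stat5a stood at 20.4, 29.7 and 20.8 FPKM and Pim2 at 11.4, 12.99 and 10.3, which are no differences by the fold rule. The count of 5 higher genes was the same under all 7 alternative settings of the fold rule that kept both days.

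Most primary granule genes of neutrophils were not counted either way. Of 13 primary granule genes, 2 were lower and 1 was higher, against 8.76% and 10.5% of all genes. Elane (neutrophil elastase) stood at 19240 FPKM uncultured, 7339 at 2 days and 5551 at 4 days, and Nkg7 at 865, 371 and 156. Mpo (myeloperoxidase) stood at 13220, 7849 and 8538 FPKM and Prtn3 (proteinase 3) at 21210, 15220 and 13400, and neither reached the fold rule. Ctsc, the protease that activates these enzymes, was higher at 34.4, 174 and 486 FPKM. The median difference of the list was -0.69 at 2 days and -0.66 at 4 days on the log2 scale, against 0.10 and 0.04 over all genes. The summed level of the list was 64960 FPKM uncultured, 41030 at 2 days and 34360 at 4 days.

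Late granule genes did not share one direction between the 2 cultures. Ngp (neutrophilic granule protein) stood at 255 FPKM uncultured, 1676 at 2 days and 1.20 at 4 days. Camp (cathelicidin) stood at 928, 2780 and 11.1 FPKM, and Ltf (lactoferrin) at 1.84, 135 and 0. All 3 were highest at 2 days and lowest at 4 days. S100a8 and S100a9, the calprotectin subunits, stood at 3458, 805 and 131 FPKM and at 1999, 953 and 0. Fcnb, a ficolin of granulocytes, stood at 872, 75.6 and 18.3 FPKM. Members that were highest at 4 days were Lyz2 (lysozyme), at 147, 289 and 1942 FPKM, Chi3l3, at 123, 150.2 and 607, and the collagenase gene Mmp8, at 0, 6.70 and 17.9. Macrophages also make lysozyme. The median difference of the 19 measured members was 1.288 at 2 days and -0.997 at 4 days, with 2 higher and 4 lower at both. Over all genes 10.5% were higher and 8.76% lower. None of these genes passed the limma test, and for Ngp and Camp the difference from uncultured changed sign with the 4-day library left out.

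Mast cell and basophil genes were higher in 6 of 16 measured members and lower in 2, against 10.5% and 8.76% of all genes. Cpa3, a mast cell protease, stood at 11.4 FPKM uncultured, 45.2 at 2 days and 644 at 4 days. The IgE receptor genes were higher as well: Fcer1a stood at 4.73, 35.8 and 199 FPKM, Ms4a2 at 1.06, 35.6 and 19.4, and Fcer1g at 109.9, 229 and 779. Mcpt8, a basophil protease, stood at 14.1, 469.5 and 91.1 FPKM. The sixth was the cytokine gene Il6 (0, 4.44 and 4.12 FPKM), which was also listed at 0 uncultured and above 0 in culture in LT-HSC and ST-HSC. The 2 lower members were the chemokine genes Ccl3 (40.1, 17.1 and 2.14 FPKM) and Ccl4 (47.2 FPKM uncultured, 0 in both cultures). Il6, Ccl3 and Ccl4 are made by many leukocytes. No member passed the limma test.

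The cultures held different mast cell and basophil proteases. Tpsab1 (tryptase), Cma1 (chymase) and Gzmb (granzyme B) were listed at 0 uncultured and at 2 days and stood at 1183, 737 and 525 FPKM at 4 days. Prss34, a basophil protease, was listed at 0 uncultured and at 4 days and stood at 234 FPKM at 2 days, and the eosinophil peroxidase gene Epx likewise at 82.7 FPKM. Ear11, an eosinophil-associated ribonuclease with several near copies, was listed at 0 uncultured and at 2 days and stood at 39.8 FPKM at 4 days. Each of these genes rests on 1 library. The summed level of the mast cell and basophil list was 327 FPKM uncultured, 1209 at 2 days and 4240 at 4 days, and that of the late granule list was 8709, 7674 and 3357. Which of the 25 cells of each pool carried these RNAs was not measured.

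Monocyte and macrophage genes were lower in 2 of 18 measured members, a share near the 8.76% of all genes. They were higher in 5, against 10.5% of all genes. Besides Lgals3 and Ccl6, these were Ctss, the antigen-processing cathepsin S (2.90, 60.4 and 176 FPKM), Emr1, the macrophage marker F4/80 (0, 8.01 and 43.8) and Ccr2 (9.07, 20.7 and 43.0). Csf1r, the receptor for macrophage colony-stimulating factor, stood at 16.1, 14.5 and 77.0 FPKM. Cd14 was lower at 189, 69.1 and 43.3 FPKM, and so was Apoe at 60.0, 9.52 and 5.16. The summed level of the list was 1294 FPKM uncultured, 1603 at 2 days and 3891 at 4 days.

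**Figure D3:**
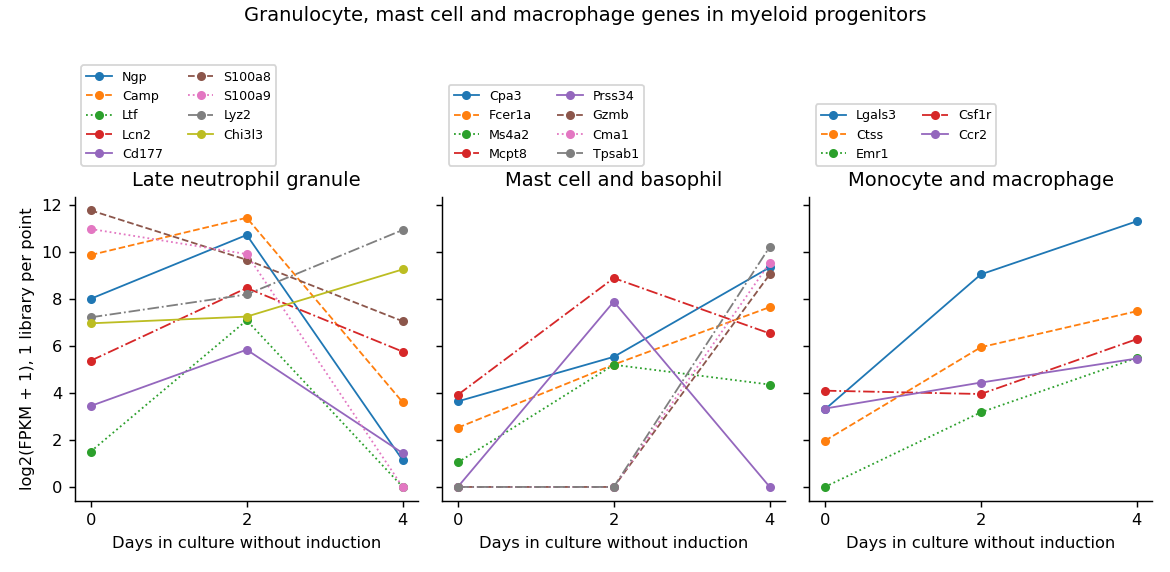
Values of 9 late neutrophil granule genes, 8 mast cell and basophil genes and 5 monocyte and macrophage genes in the 3 MP libraries, as log2(FPKM + 1) against days in culture without induction; lines join single libraries. Ngp, Camp and Ltf are highest at 2 days and lowest at 4 days, Lyz2 and Chi3l3 are highest at 4 days, and Tpsab1, Cma1 and Gzmb are above 0 only at 4 days.

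Genes of phagocytosis and lysosomes held more higher than lower members. Of 19 phagocyte oxidase and Fc receptor genes, 4 were higher and none lower, against 10.5% and 8.76% of all genes: Fcer1g, Fcgr1 (0, 2.11 and 23.3 FPKM), the kinase gene Fgr (0.524, 3.38 and 3.55) and the inhibitory receptor gene Lilrb3 (0, 2.61 and 28.3). With a pseudocount of 5 the count was 1. Of 26 lysosome genes, 4 were higher and 1 lower, the former a share near the 10.5% of all genes. The median difference of the lysosome list was -0.055 at 2 days and 0.613 at 4 days on the log2 scale. The higher ones included Gusb (beta-glucuronidase) at 119, 264 and 291 FPKM and Tcfeb, the regulator of lysosome genes, at 1.88, 13.9 and 50.2. Alox5, the first enzyme of leukotriene synthesis, stood at 4.96, 85.9 and 60.1 FPKM, and was 1 of 2 higher genes among 9 of that pathway.

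Some MHC class II genes were among those higher in culture. Of 13 dendritic cell and MHC class II genes, 5 were higher and 1 lower, against 10.5% and 8.76% of all genes. All 5 were listed at 0 uncultured, so they passed the filter only through their cultured values. Cd74, the invariant chain that escorts MHC class II proteins, stood at 46.7 FPKM at 2 days and 65.8 at 4 days (limma adjusted p = 0.0292). H2-Aa stood at 27.3 and 21.6 FPKM and H2-Eb1 at 20.6 and 1.24. Ciita, the activator of these genes, stood at 2.07 and 4.89 FPKM, and Batf3, a factor of cross-presenting dendritic cells, at 1.68 and 5.19. H2-Ab1 was present before culture, at 35.7 FPKM, stood at 82.5 and 39.7 in culture, and did not reach the fold rule. With a pseudocount of 5 the count of higher members was 2, and with quantile normalization 3. The dendritic cell markers Itgax, Xcr1 and Siglech stood at or under 0.675, 0.344 and 5.60 FPKM in all 3 libraries.

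The list of cholesterol synthesis and regulation genes also includes the exporter gene Abcg1. Of its 23 measured members 7 were higher, against 10.5% of all genes, and none was lower. Sc4mol stood at 3.18, 31.9 and 18.8 FPKM, Lss at 5.33, 23.6 and 31.4, and Mvd at 14.0, 47.9 and 96.2. Mvk and Sqle were also higher, as was the sterol exporter gene Abcg1 (1.95, 5.14 and 13.4 FPKM). The median of the list was 0.62 at 2 days and 0.75 at 4 days on the log2 scale, no member passed the limma test, and 1 of the 7 differed by at least 2. Fasn, the fatty acid synthase gene, stood at 147, 394 and 368 FPKM, and the glucose transporter gene Slc2a1 at 8.45, 26.5 and 42.4.

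In the endoplasmic reticulum list, Manf (674, 1911 and 1684 FPKM), Sdf2l1 (349 and 397 FPKM in culture, log2 differences of 2.11 and 2.30) and the secretory regulator Xbp1 (244, 595 and 591) were higher, 3 of 18 genes. Hspa5 (BiP) stood at 1603, 848 and 767 FPKM. Among antioxidant genes 3 of 21 were higher and 1 lower, with Prdx1 at 43.5, 134 and 149 FPKM. Among 20 interferon response genes, 2 were higher and 5 lower. For these lists, the shares over all genes were 10.5% higher and 8.76% lower. Ifitm1 (91.1, 469.6 and 434 FPKM) and Ifitm3 (94.0, 519 and 694 FPKM; limma adjusted p = 0.0636) were higher, while Irf1 (88.2, 14.4 and 41.7) and Irf7 (18.9, 0 and 5.34) were lower. The 2 Ifitm genes have near copies, so their reads may be shared.

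Growth and division genes held few differences. Of 48 genes of G1/S and DNA replication, 1 was higher and 1 lower, with Mcm5 at 453, 230.4 and 397 FPKM and Mcm7 lower at 78.6, 33.7 and 36.2. Of 49 genes of G2/M and mitosis, 2 were higher and 1 lower: Aurka at 47.1, 129 and 97.9 FPKM, Cdca3 at 272, 553 and 586, and Cenpf at 13.8, 4.54 and 0.865. Of 45 ribosome biogenesis genes, none was higher and 1 lower, Polr1c at 256, 85.8 and 63.6 FPKM. Of 42 respiratory chain genes 1 was higher and none lower. These shares lie below the 10.5% and 8.76% of all genes, and no member of the 4 lists passed the limma test. The cyclin gene Ccnd3 stood at 79.97, 231.1 and 231.1 FPKM.

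Fate regulators were lower in 7 of 28 measured members and higher in 2, against 8.76% and 10.5% of all genes. The 7 lower were Gata1, Klf1, Zfpm1, Egr1 and Jun, described above, Cebpd, a C/EBP factor of myeloid cells (104.4, 41.4 and 48.7 FPKM), and Runx1, a regulator of blood stem cells and their descendants (40.4, 16.8 and 17.2 FPKM). The 2 higher were Id1 and Cebpb (0, 1.87 and 3.38 FPKM). Regulators of granulocytes and monocytes that did not reach the fold rule included Cebpa, Sfpi1 and Gfi1. Cebpa stood at 12.5, 47.5 and 23.0 FPKM, Sfpi1 at 419, 548 and 940, and Gfi1 at 99.4, 172 and 94.7. Cebpe, needed for late neutrophil granules, stood at 132 FPKM uncultured, 163 at 2 days and 34.2 at 4 days, which is the order by day seen for Camp. Gata2, shared by mast cells and stem cells, stood at 18.6, 51.8 and 16.5 FPKM.

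Among adhesion genes 3 of 21 were higher and 3 lower, against 10.5% and 8.76% of all genes. Vcam1, a ligand for leukocyte integrins, stood at 88.2 FPKM uncultured and was listed at 0 in both cultures (limma adjusted p = 0.0292). Itgb7 was listed at 0 uncultured and stood at 16.0 and 14.9 FPKM in culture, and Cd44, the hyaluronan receptor, stood at 83.4, 23.6 and 23.5. The remaining genes that fell by limma were Hpn, a membrane protease (178 FPKM uncultured, 0 in both cultures; adjusted p = 0.036), and Cox6b2, a cytochrome oxidase subunit (89.2 FPKM uncultured, 0 in both cultures; adjusted p = 0.0292).

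The same culture step was available for the stem cells, with caution about their libraries. The uncultured LT-HSC library carried neutrophil granule genes at levels near those of MP (Mpo 7525 FPKM, Elane 13550, S100a8 4363), against 16.8 FPKM of Mpo in LT-HSC after 2 days. The 2-day LT-HSC library carried late granule genes (Camp 1266 FPKM, Ngp 799, Ltf 228) that stood at 0 to 3.71 FPKM at 4 days. Counts for LT-HSC rest on these libraries. By the fold rule 20.5% of 10965 genes were higher and 14.2% lower in LT-HSC, and 22.3% of 10815 higher and 17.7% lower in ST-HSC.

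Immediate early genes were lower in all 3 cell types: in 22 of 24 measured genes in LT-HSC, 22 of 23 in ST-HSC and 16 of 23 in MP. Over all genes the lower shares were 14.2% in LT-HSC, 17.7% in ST-HSC and 8.76% in MP. In uncultured stem cells Fosb stood at 352 FPKM (LT-HSC) and 342 FPKM (ST-HSC), and their 4 cultures lay at or under 0.415 FPKM. Nr4a1 stood at 582 FPKM (LT-HSC) and 560.3 FPKM (ST-HSC) before culture, above the 46.9 FPKM of MP, and at or under 1.25 FPKM after it. No member of this list passed the limma test of a difference between MP and the mean of the stem cell types.

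Some erythroid genes differed between cell types in their starting level. Klf1, Epor, Car1 and, outside the list, Rhd were at or under 4.57 FPKM in both uncultured stem cell libraries. In uncultured MP these genes stood at 46.2 to 366 FPKM. Car2 was high in all uncultured libraries, at 548 FPKM in LT-HSC, 637 in ST-HSC and 1141 in MP. Whether starting levels bear on the counts below was not tested. Of 14 erythroid list genes in LT-HSC, 5 were higher, against 20.5% of all genes. The 2 that were lower are a share near the 14.2% of all genes. Of 11 in ST-HSC, 4 were higher and 1 lower, against 22.3% and 17.7% of all genes. Gfi1b passed the test of the difference. It stood at 0.686, 73.8 and 135 FPKM in LT-HSC and at 25.2, 54.9 and 51.0 in ST-HSC, higher in culture, and was lower in MP culture, a difference of -7.32 ± 0.711 (SE; limma adjusted p = 0.0454). That call was lost when any 1 N library or either stem cell type was left out, under quantile normalization and median-ratio scaling, with 15 blood libraries, with plain eBayes and with day as a term (adjusted p of 0.0176 to 0.392 over all alternatives).

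MHC class II genes ran the other way. Cd74 stood at 152 FPKM in uncultured LT-HSC and 387 in uncultured ST-HSC, at 0 in both LT-HSC cultures and at 19.4 and 44.2 in ST-HSC cultures. Its culture difference in MP exceeded the stem cell mean by 11.28 ± 0.760 on the log2 scale (SE; limma adjusted p = 0.0101), a size that depends on the 1 added before the log because 3 of the libraries are at 0. This call held with day as a term (limma adjusted p = 0.0439) and without ST-HSC (limma adjusted p = 0.0271) but not without LT-HSC, without any 1 N library or with 15 blood libraries (0.00273 to 0.306 over all alternatives). The 2 uncultured stem cell libraries held H2-Aa at 231 and 594 FPKM and H2-Eb1 at 264 and 671 FPKM, where MP was at 0, and both genes were lower in stem cell culture. Their differences did not pass the test (limma adjusted p = 0.124 and 0.103). Of the list, 7 of 11 genes were lower in LT-HSC and 9 of 13 in ST-HSC, against 14.2% and 17.7% of all genes.

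Replication genes were described in the same way. In LT-HSC 30 of 48 were higher, against 20.5% of all genes, and in ST-HSC 25 of 48, against 22.3%. None was lower in either, against 14.2% and 17.7% of all genes. In MP 1 of 48 was higher and 1 lower, against 10.5% and 8.76% of all genes. Mcm6, a subunit of the replicative helicase, stood at 92.4, 289.8 and 415 FPKM in LT-HSC, at 155, 302 and 301 in ST-HSC and at 291, 165 and 148 in MP. For this 1 gene the uncultured MP library lay close to the cultured stem cells, and whether starting levels bear on the counts was not tested. The median difference of the whole list in MP was -0.2 at 2 days and -0.026 at 4 days on the log2 scale. The difference of Mcm6 between MP and stem cells did not pass the test (limma adjusted p = 0.115), and no gene of the list did. Of 45 ribosome biogenesis genes, 9 were higher in LT-HSC, a share near the 20.5% of all genes, and 17 in ST-HSC, against 22.3% of all genes. None of the 45 was higher in MP, against 10.5% of all genes.

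Over all genes the limma test of the difference called 1 gene higher (0.00897%), Cd74, and 2 lower (0.0179%), Gfi1b and Alkbh7. At an unadjusted p under 0.05 there were 1789 genes. Alkbh7, a mitochondrial dioxygenase, stood at 50.6, 44.0 and 53.9 FPKM in MP and differed little, while both uncultured stem cell libraries listed it at 0 and their 4 cultures at 47.4 to 58.8 FPKM (-5.86 ± 0.570, SE; limma adjusted p = 0.0454). This call too was lost with any 1 N library or either stem cell type left out, under both scalings and with day as a term (adjusted p of 0.00366 to 0.392 over all alternatives). The next genes by p were not past the threshold: B4galt5 (5.17; limma adjusted p = 0.0938) and Id1 (4.02; 0.103) toward higher in MP, and Mrps24 (-3.52; 0.0936) toward lower. Of the 3 calls, 2 were also counted in MP by the fold rule.

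**Figure D4:**
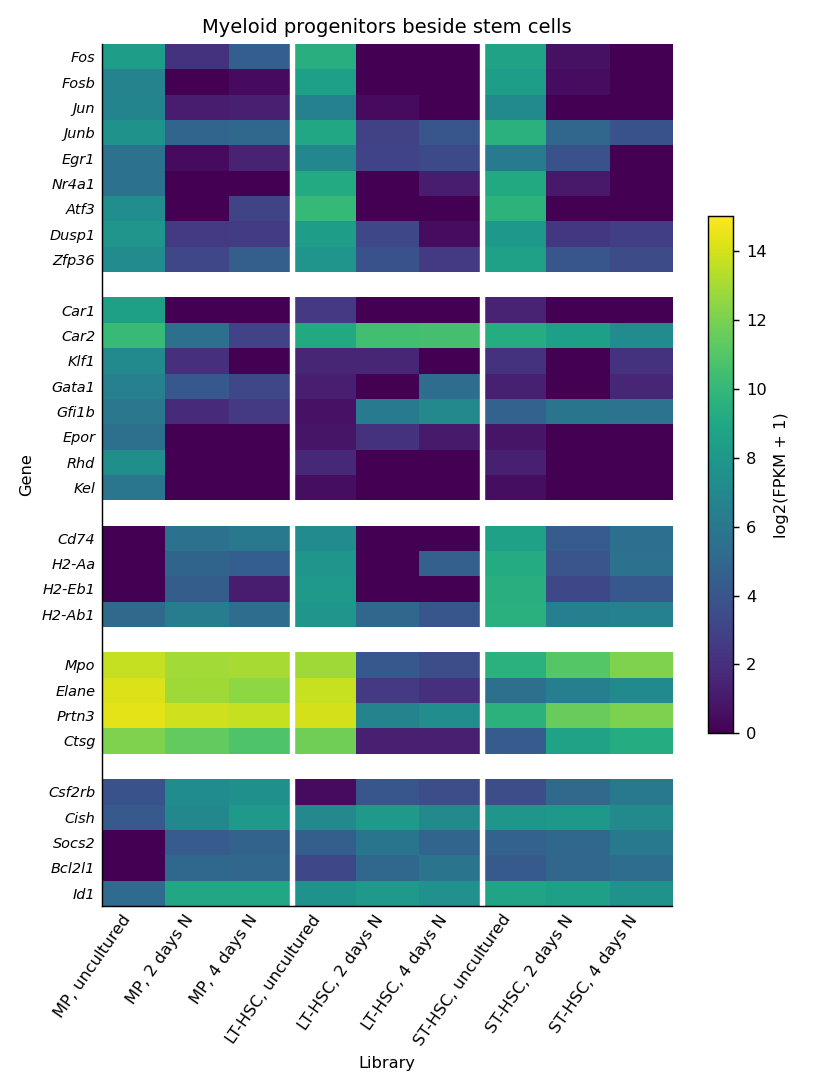
Log2(FPKM + 1), by colour, of immediate early, erythroid, MHC class II, primary granule and cytokine signalling genes (rows, top to bottom) in the uncultured, 2-day and 4-day N libraries of MP, LT-HSC and ST-HSC (columns). The immediate early rows are bright in the 3 uncultured libraries, the erythroid rows other than Car2 and Gfi1b are bright mainly in uncultured MP, and the MHC class II rows are dark in uncultured MP other than H2-Ab1.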

How the data were processed

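The deposited table gives 1 FPKM value per gene and library, made with TopHat and Cufflinks on mm9 per the submitters' processing notes; neither a version nor the annotation is given in the sources used here. The table's unit was read from its values. Low values were not multiples of a step, so reads could not be recovered. Of 36818 rows, 4071 small RNAs and 5106 pseudogenes were set aside, by gene type in GENCODE M21 (31855 rows) or RefSeq (1532) and otherwise by symbol (3431), and 146 repeated symbols were summed, leaving 27490. The deposited FPKM were then taken to log2(FPKM + 1), so differences of low genes are understated.

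The fold rule (at least 1 at both days, mean FPKM of at least 1) carries no test. The limma 3.58.1 fit (R 4.3.3; trend and robust options, Benjamini-Hochberg over all genes tested, two-sided, threshold 0.05) was made over 9 libraries; day as a term was added as an alternative after seeing the data. Members and lists were chosen with earlier results of these data known. Named genes are, at FPKM 20 or more in an MP library, the 15 largest rises and falls, the smallest p against stem cells, up to 5 each way between days, and up to 6 members of each list with its defining members. Tfrc, Tal1, Icam4, Fosl1, Fosl2, Stat5a, Pim2, Il3ra, Hmgcs1 and Gapdh were named after their values were seen. Figures were made in Python 3.11.15. Some genes that the rule names are left out of the text.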

Additional observations from a re-analysis of the deposited data

Results flagged for a closer look

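For 3 genes the culture difference in MP differed from the mean of the stem cell types by limma's test of that difference. Cd74 differed by 11.28 on the log2 scale (limma adjusted p = 0.0101), being listed at 0 in uncultured MP and at 46.7 and 65.8 FPKM in MP culture while lower in cultured than in uncultured stem cells. Gfi1b differed by -7.32 (limma adjusted p = 0.0454), with lower values in MP culture and higher values in stem cell culture. Alkbh7 differed by -5.86 (limma adjusted p = 0.0454), because both uncultured stem cell libraries list it at 0 while MP lies between 44.0 and 53.9 FPKM. Leaving out any 1 N library removed all 3 calls, and with day as a term, added after seeing the data, only the Cd74 call remained (limma adjusted p = 0.0439).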

How the results depend on the processing

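The fold rule gave 1094 higher and 913 lower genes. These became 272 and 338 with a difference of at least 2, 479 and 468 with a pseudocount of 5, and 727 and 509 with a mean FPKM of at least 5. With 1 culture left out the rule asks for less, and gave 1846 to 1903 higher and 1461 to 1753 lower. The limma counts in MP, 8 higher and 13 lower, became 4 and 49 at a pseudocount of 5, 43 and 234 with no filter, 14 and 34 with 15 blood libraries, and 0 and 25 with plain eBayes. At a pseudocount of 0.1, 4 were lower, and 22 and 24 were lower under quantile and median-ratio scaling. Against stem cells, 1 higher and 2 lower became 2 and 8 (pseudocount 0.1), 11 and 19 (pseudocount 5), 479 and 344 (no filter), 3 and 5 (mean FPKM of at least 5), 14 and 29 (15 libraries), and 10 and 15 (plain eBayes). No gene was lower under either scaling. With 1 library left out the MP counts were 0 to 0, and against stem cells, with 1 library or 1 stem cell type left out, 0 to 5 higher and 0 to 1 lower. The lone sample left in a group is assumed to vary like the others. With 1 culture left out, the MP difference ranged from -6.261 to 1.582 for Camp, -6.86 to 2.714 for Ngp, 0.00 to 9.038 for Gzmb, -0.199 to 0.088 for Alkbh7, -1.505 to 5.577 for Ltf and 0.00 to 7.876 for Prss34. For Pdzk1 it was -0.422 at a pseudocount of 0.1. The cause was not tested. No paired analysis was possible because each group is a single library without a replicate number in its label. Day, which the 3 cell types share, was added as a term after seeing the data: the MP counts became 0 higher and 0 lower, and those against stem cells 1 higher and 0 lower, leaving 2 residual degrees of freedom.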

Other observations

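A few genes of other lineages were on the list of genes lower in both MP cultures. Over all genes 8.76% were lower and 10.5% higher. Of 7 measured lymphoid genes 3 were lower and none higher: Dntt, the template-free DNA polymerase of lymphocyte precursors, stood at 16.0 FPKM uncultured and 0 in both cultures, Igll1, a surrogate light chain, at 31.7, 1.45 and 0, and Ebf1, a B cell factor, at 6.54 FPKM uncultured and 0 in both. The T cell gene Cd3e was listed at 0 throughout. Of 14 measured stem cell genes, 3 were higher and 4 lower. Procr (EPCR), a stem cell surface protein that mast cells and activated cells can also carry, was listed at 0 uncultured and stood at 10.5 and 10.1 FPKM, and Thy1 at 0, 14.95 and 5.083. Esam stood at 11.1 FPKM uncultured and 0 in both cultures, and Prom1 at 26.1, 7.63 and 10.04. Slamf1 and Mecom were listed at 0 in all 3 MP libraries. None of these genes passed the limma test.

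Of 11 measured genes of the Myc network, 2 were higher and 2 lower, against 10.5% and 8.76% of all genes. Mlx, which pairs with glucose-sensing factors, was higher at 33.6, 207 and 192 FPKM, and Mxd3, a Myc antagonist, at 4.44, 16.3 and 27.4. Mxd4 and Mga were lower, at 36.5, 13.4 and 17.4 FPKM and at 6.16, 0.825 and 0.623. Il6 was listed at 0 uncultured in MP, LT-HSC and ST-HSC and stood at 2.80 to 9.78 FPKM in all 6 N libraries, 4.44 and 4.12 of them in MP (limma adjusted p = 0.303 for MP).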
